A study of Mus musculus with 9 samples.

Results

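Retinoid X receptors (RXRs) are nuclear receptors, and the series asks what their loss does to open chromatin in the long-term haematopoietic stem cells (LT-HSCs) of the mouse. The 5 LT-HSC lists of ATAC-seq peaks compared here came from 3 RXRa/RXRb-KO libraries (KO 1, KO 2 and KO 4) and 2 Wild-type libraries (WT 2 and WT 3), chosen by their titles from the 9 lists of the series. The other 4 come from multipotent progenitors (MPPs), with 2 libraries of each genotype. In ATAC-seq the Tn5 transposase inserts adapters into accessible DNA, so a peak marks a stretch of open chromatin. All mice were of the C57BL/6 strain, and cells of pooled animals were taken from bone marrow, depleted of lineage-positive cells and sorted by flow cytometry. The labels give neither the alleles nor the Cre driver, the age of the mice or the number pooled. Since no label says that replicates came from separate mice, the p-values cover the scatter among libraries alone, and that scatter may be technical.

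RXRA and RXRB bind DNA as partners of other nuclear receptors, among them the retinoic acid receptors, the liver X receptors, the PPARs, the vitamin D receptor and NR4A1. With ligand such dimers recruit coactivators, and without it some of them hold corepressors at their target genes. LT-HSCs are rare, mostly quiescent cells that renew themselves and give rise to all blood lineages, and MYC is a transcription factor that drives growth and division, which in these cells goes with exit from quiescence.

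Overlapping peaks of the 5 lists were merged into 77867 regions, of which 53701 were held by at least 2 lists and 14541 by all 5. Within each list the strength of a region was its rank by the deposited −log10 q-value, and for the 14541 common regions the rank was turned into a percentile among them, 100 being the strongest. A percentile therefore says how strong a site is beside the other sites of the same list. It is not an amount of open chromatin, and an equal change at all sites would leave it as it is.

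The sequences of a few start sites are examples of base composition at regions whose ranks did not overlap between the genotypes. Each run is the 250 bases before a RefSeq start site in the GRCm38.p6 assembly, written 5′ to 3′ on the strand of the gene, with CpG dinucleotides in capitals. The first 3 lie in regions that ranked higher in every KO list than in both WT lists, and the last 4 in regions that ranked lower. At Cr2 the gap between the genotypes was only 1.3 percentile points, against a range of 17.5 among the KO lists.
Armh4 (chr14:49783384-49783633, minus strand): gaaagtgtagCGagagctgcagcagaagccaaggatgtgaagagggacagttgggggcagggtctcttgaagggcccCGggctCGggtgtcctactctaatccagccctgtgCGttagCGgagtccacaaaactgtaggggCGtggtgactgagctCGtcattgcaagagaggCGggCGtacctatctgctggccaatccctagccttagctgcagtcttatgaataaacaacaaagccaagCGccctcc
Pf4 (chr5:90772185-90772434, plus strand): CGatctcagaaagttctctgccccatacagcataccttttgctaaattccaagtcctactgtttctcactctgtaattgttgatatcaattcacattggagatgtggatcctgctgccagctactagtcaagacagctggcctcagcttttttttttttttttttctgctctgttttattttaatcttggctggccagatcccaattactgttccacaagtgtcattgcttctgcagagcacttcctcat
Cr2 (chr1:195176720-195176969, minus strand): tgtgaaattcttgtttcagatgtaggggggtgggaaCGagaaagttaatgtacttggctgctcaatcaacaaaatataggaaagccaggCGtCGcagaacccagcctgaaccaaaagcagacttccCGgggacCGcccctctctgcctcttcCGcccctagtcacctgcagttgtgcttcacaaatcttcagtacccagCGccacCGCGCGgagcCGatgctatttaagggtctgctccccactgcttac
Clic4 (chr4:135272761-135273010, minus strand): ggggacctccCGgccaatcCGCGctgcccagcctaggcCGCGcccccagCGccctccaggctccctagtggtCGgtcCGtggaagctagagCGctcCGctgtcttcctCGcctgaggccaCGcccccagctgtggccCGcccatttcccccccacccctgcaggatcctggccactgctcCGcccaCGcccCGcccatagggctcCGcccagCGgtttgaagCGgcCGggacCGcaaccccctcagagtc
Rnf44 (chr13:54693961-54694210, minus strand): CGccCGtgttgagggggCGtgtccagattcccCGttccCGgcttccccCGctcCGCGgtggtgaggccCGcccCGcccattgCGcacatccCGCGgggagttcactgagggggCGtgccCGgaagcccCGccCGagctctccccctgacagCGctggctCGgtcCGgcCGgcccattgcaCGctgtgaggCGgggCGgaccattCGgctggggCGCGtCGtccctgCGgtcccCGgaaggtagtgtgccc
Set (chr2:30066224-30066473, plus strand): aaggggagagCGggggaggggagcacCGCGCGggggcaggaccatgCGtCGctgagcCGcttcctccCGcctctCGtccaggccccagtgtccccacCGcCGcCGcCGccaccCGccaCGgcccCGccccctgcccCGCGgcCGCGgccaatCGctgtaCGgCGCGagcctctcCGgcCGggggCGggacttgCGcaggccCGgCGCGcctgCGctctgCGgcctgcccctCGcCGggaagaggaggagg
Rps10 (chr17:27635245-27635494, minus strand): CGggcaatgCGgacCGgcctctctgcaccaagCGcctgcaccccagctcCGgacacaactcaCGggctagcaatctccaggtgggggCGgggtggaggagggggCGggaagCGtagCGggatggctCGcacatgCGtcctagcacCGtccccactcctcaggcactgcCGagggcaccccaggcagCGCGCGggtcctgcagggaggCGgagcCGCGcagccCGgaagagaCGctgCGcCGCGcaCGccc
The stretch before Pf4, which encodes a chemokine of platelets, held 1 CpG and had a GC content of 41.2%. That before Armh4 held 10, and that before Cr2, a complement receptor of B cells, held 11. Those of the regions lower in KO held 21 before Clic4, 30 before Rnf44, 35 before Set and 26 before Rps10, with GC contents from 72.8% to 79.6%. Over all promoter windows under such regions the median GC was 66.0% where KO ranked lower and 56.0% where it ranked higher. The 4 lower runs and that of Pf4 thus overstate the contrast. No 250-base stretch shown held the E-box CACGTG or AGGTCA, the core motif of nuclear receptors, on either strand. The GC box GGGCGG was in all 4 of the KO-lower runs and in 1 of the 3 KO-higher runs, that of Cr2.

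The KO lists were not alike, and this bears on every comparison. KO 1 held 22690 peaks, KO 2 held 43126 and KO 4 held 71586, against 50023 in WT 2 and 22878 in WT 3. The mean difference of 9350 peaks (KO 45801 ± 24557, SD, n = 3; WT 36450 ± 19194, n = 2) was smaller than the spread within either genotype (two-sided exact permutation test, p = 0.7). With 10 ways to label 5 lists, the smallest p this test can give is 0.1. Over the common regions KO 1 and KO 2 ranked alike, with a Spearman correlation of 0.85, and so did WT 2 and WT 3, at 0.87. KO 4 ranked with the Wild-type lists: its correlation was 0.87 with WT 2 and 0.77 with WT 3, but 0.53 with KO 1 and 0.61 with KO 2. KO 1 and KO 2 correlated with the WT lists at 0.52 to 0.59. These correlations run across regions of the same lists and are descriptions. When each list was cut to its 22690 strongest peaks, the Jaccard index, the share of regions held in common, was 0.758 for KO 4 and WT 2 and 0.656 for KO 1 and KO 2, but 0.514 for KO 1 and KO 4. The tests, the measures of whole lists and the gene list medians below are therefore also given without KO 4, and for single regions the value of KO 4 stands beside the others.

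**Figure D1:**
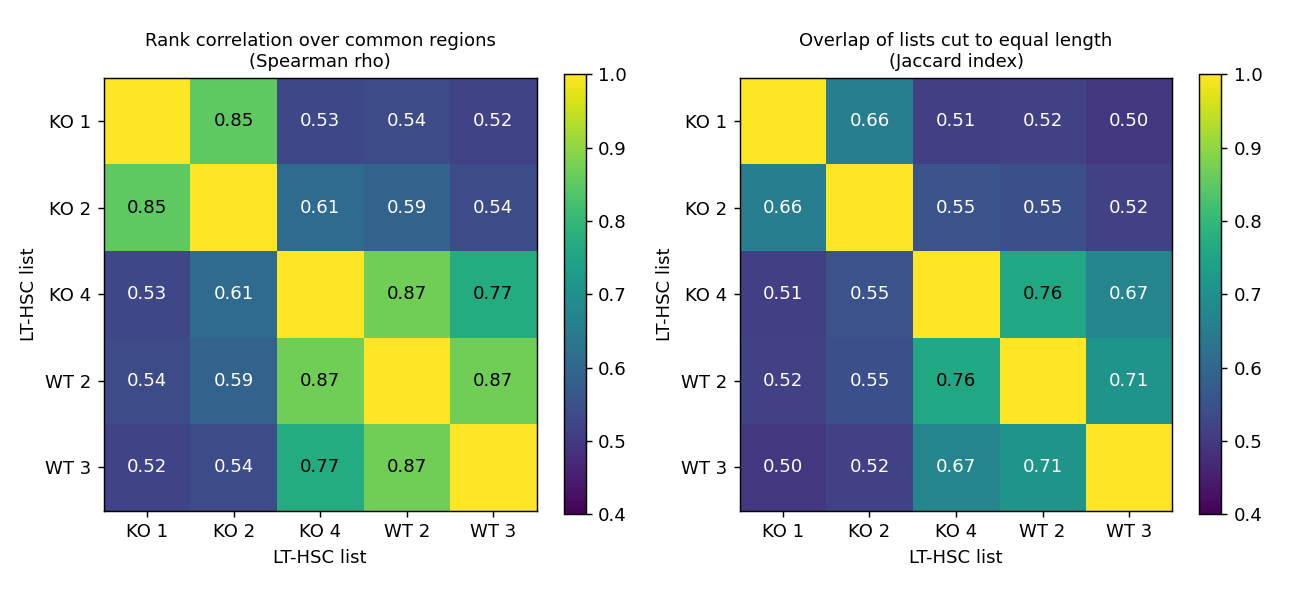
Similarity of the 5 LT-HSC peak lists: the left panel gives the Spearman correlation of ranks over the 14541 common regions, the right panel the Jaccard index of the lists cut to equal length, both by colour and number. KO 4 is closest to WT 2 in both panels, with 0.87 and 0.76, and KO 1 is closest to KO 2, with 0.85 and 0.66.

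No common region passed the rank test between genotypes when all 5 lists were used. With limma on normal scores of the ranks and Benjamini-Hochberg adjustment, 0 of 14541 regions were called higher in KO and 0 lower (0.0% each), and the smallest adjusted p was 0.319. At an unadjusted p under 0.05 limma had 1199 regions higher (8.25%) and 801 lower (5.51%). All KO percentiles lay above both WT percentiles in 2389 regions (16.4%) and below both in 2271 (15.6%). Where KO was higher, the median difference of the group means was 23.7 percentile points, with a median KO SD of 9.9. Where KO was lower, the difference was -21.0, with a KO SD of 8.9. The gap between the nearest lists of the groups was smaller, with a median of 6.3 points for the higher and 5.9 for the lower regions, against median ranges of the KO lists of 18.6 and 16.9. The gap exceeded the range of both groups in 317 of the regions higher in KO and in 379 of those lower.

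Without KO 4 the same limma test called 2305 of 14544 regions higher in KO (15.8%) and 2235 lower (15.4%), each from 2 lists against 2. In the 2304 of the higher ones that all 5 lists hold, the median percentile was 82.9 in KO 1 and 82.3 in KO 2, 38.0 in WT 2 and 32.9 in WT 3, and 45.5 in the KO 4 list, which had no part in the call. In the 2235 lower ones it was 42.5 and 45.9 in KO 1 and KO 2, 82.2 and 81.4 in WT, and 80.0 in KO 4. KO 4 lay nearer to the WT mean than to that of KO 1 and KO 2 in 80.3% of the higher and 83.8% of the lower regions. Its median place was 20.1% of the way from the WT mean to the other KO mean for the higher regions and 3.76% for the lower ones. KO 4 lay beyond both WT lists on the KO side in 57.0% of the higher regions (1313) and 45.6% of the lower ones (1019). The WT ranks took part in choosing these regions, so a list left out can lie beyond them by that choice alone. No reference share was computed. With all 5 lists and log2 list length as a covariate limma called 283 regions higher (1.95%) and 107 lower (0.736%). Ranking by the deposited fold enrichment in place of the q-value gave 9 regions higher (0.0619%) and 0 lower.

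At the Vav1 gene KO 4 ranked by q-value with KO 1 and KO 2. Vav1 encodes a guanine nucleotide exchange factor of blood cells. It entered this account because a region inside it was among the 10 named for the lowest p among non-overlapping regions. The rest of the locus was looked up after those values were seen. The region at chr17:57290095-57291229, 11.6 kb inside the gene, had percentiles of 99.3, 99.8 and 100 in KO 1, KO 2 and KO 4 and of 87.7 and 86.6 in WT 2 and WT 3. The KO lists spanned 0.7 points, and in KO 4 the region was the strongest of the common ones. The difference of 12.6 points (SD of the KO lists 0.4) had an adjusted limma p of 0.319 with all lists and 6.56e-05 without KO 4. Ranked by fold enrichment in place of the q-value, the difference at this region was 2.0 points, with an adjusted limma p of 0.883. The fold ranks were 91.6, 90.4 and 39.5 in KO 1, KO 2 and KO 4 against 61.1 and 82.4 in WT, so KO 4 lay below both WT lists. At the start of Vav1 (chr17:57278859-57279276) the values were 67.6, 73.1 and 78.3 against 21.4 and 44.4. At the region 2.1 kb before it (chr17:57276692-57277209) they were 67.5, 77.2 and 49.1 against 11.6 and 12. By q-value all 3 regions lay higher in every KO list than in both WT lists. By fold enrichment this held for the region before the start alone (39.2, 37.7 and 6.1 against 2.4 and 3.4). At the start the fold ranks were 36.9, 31.3 and 20.9 against 4.6 and 32.9.

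The MPP libraries, which had no part in choosing Vav1, had the same direction at these 3 regions by q-value, from 2 lists against 2 and without a test. At the Vav1 start the MPP percentiles were 74.8 and 74.0 in KO against 36.6 and 36.3 in WT, the largest KO minus WT difference (37.9 points) among the 13951 common regions that all 4 MPP lists hold. The region before the start had 34.8 and 35.0 against 7.2 and 10.8, number 13 in that order. The region inside the gene had 99.4 and 99.1 against 77.3 and 72.1, number 20. Ranked by fold enrichment, the start had 32.1 and 27.4 in MPP KO against 16.6 and 15.9 in WT, while the region inside the gene had 34.9 and 28.6 against 45.4 and 40.3, the opposite direction. The neighbouring regions did not share this in both cell types. That at chr17:57264927-57265524, assigned to Trip10, lay higher in the KO LT-HSC lists (82.3, 89.5 and 74.1 against 58.9 and 70.3). In MPPs it did not (49.6 and 47.3 against 50.9 and 46.6). That at chr17:57335698-57336054, past the end of Vav1, lay higher in the KO MPP lists (32.0 and 33.6 against 29.8 and 25.6). Its LT-HSC values were 13.6, 26.3 and 30.7 against 39.3 and 27.7. A region near Adgre1 (chr17:57344035-57344676) lay higher in the KO LT-HSC lists (34.1, 33.5 and 29.3 against 4.0 and 14.5) but not in MPPs (12.3 and 25.9 against 18.4 and 24.3). As background, the promoter of Vav1 and an enhancer inside the gene are built into Cre transgenes that delete genes in blood cells. No label says which Cre line these mice carried, and its part in these peaks was not tested.

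Of the 10 regions named as lower in KO, 6 covered the start site of their gene. The region at Set, a histone chaperone and inhibitor of a protein phosphatase, lay at chr2:30065948-30066608 and had percentiles of 12.9, 10.5 and 13.2 in KO 1, KO 2 and KO 4 against 77.1 and 66.3 in WT 2 and WT 3. Its difference of -59.5 points far exceeded the SD of 1.4 among the KO lists and the range of the WT pair. Rps10, a protein of the small ribosomal subunit, had 8.0, 5.8 and 13.5 against 58.4 and 78.3 (difference -59.3, KO SD 4.0). Josd1, a deubiquitinase, had 2.9, 0.3 and 10.9 against 59.7 and 62.6. Luc7l2, a splicing factor, had 22.3, 3.1 and 9.5 against 66.7 and 82.1 in a region 4.1 kb from its start, and Kank3 had 13.7, 6.2 and 24.1 against 74.3 and 79.0 in a region inside the gene. That no KO list overlapped with WT, KO 4 included, was a condition for naming these regions. In these 5 the gap was also wider than either group's range, and a choice by low p favours a small spread. Ranked by fold enrichment the difference was -39.5 in place of -62.8 at Luc7l2 and -14.9 in place of -56.5 at Josd1.

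The remaining 5 lower regions were among the strongest sites of WT. Clic4, a chloride intracellular channel protein, had 72.4, 84.5 and 85.2 in KO against 99.7 and 99.1 in WT. Rnf44, a RING finger protein, had 59.0, 64.2 and 76.0 against 96.8 and 97.6. Carm1, an arginine methyltransferase that acts as a coactivator of nuclear receptors, had 72.1, 74.8 and 83.2 against 98.1 and 98.0. Dynll1, a dynein light chain, had 63.0, 68.6 and 83.3 against 97.9 and 96.7, and Pkd2l1, a cation channel, had 46.0, 35.8 and 85.3 against 98.3 and 98.4. In Pkd2l1 and Dynll1 the KO lists spread more widely than the gap to WT, with KO 4 the highest of the KO lists. The adjusted limma p of all 19 regions described for the lowest p was 0.319. Without KO 4 the differences at the 10 lower ones ran from -66.7 (Kank3) to -20.9 (Clic4), with adjusted limma p-values from 5.55e-06 (Pkd2l1) to 0.00147 (Luc7l2). These regions were chosen for low p in the same lists, so the p-values without KO 4 are descriptions.

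Of the 9 regions described as higher in KO, 8 lay outside Vav1, and 6 of these had 1 to 7 protein-coding genes within 500 kb, against a median of 12 for all common regions. Nova1, a splicing regulator of neurons, had 93.1, 91.7 and 45.8 against 12.9 and 4.8. Its difference of 68.0 points came with a KO SD of 26.9, since KO 4 stood midway. Armh4 had 91.0, 92.6 and 58.8 against 9.6 and 22.5, and Lrrtm4, a synaptic adhesion protein, had 97.1, 95.8 and 72.7 against 38.9 and 26.0. In each of these 3, KO 4 lay below KO 1 and KO 2. It lay above both WT lists too, which the rule that named the regions required.

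The same order held at the rest. Tep1, a telomerase-associated protein, had 75.9, 66.4 and 43.9 against 2.2 and 5.9. Rhobtb1 had 68.7, 76.8 and 58.4 in a region 46.7 kb away from it against 17.7 and 7.6. Ube2d1, a ubiquitin-conjugating enzyme, had 69.2, 75.9 and 35.7 in a region 7.0 kb away from it against 3.5 and 5.9. Trim36, a ubiquitin ligase, had 58.9, 78.3 and 41.8 against 2.1 and 7.2 in a region 72.4 kb away from it. The predicted gene Gm46911 had 72.1, 73.7 and 50.2 against 11.3 and 2.4 in a region 50.5 kb away. KO 4 was the lowest KO list at all 8, and KO differed from WT by 55.1 to 68.0 points. Without KO 4 the differences were 60.1 (Rhobtb1) to 83.5 (Nova1), with adjusted limma p-values from 1.67e-05 (Lrrtm4) to 0.00134 (Rhobtb1). Since KO 4 was the lowest KO list, leaving it out had to widen these differences. The regions were also chosen for low p in these same lists, so the p-values without KO 4 are descriptions.

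**Figure D2:**
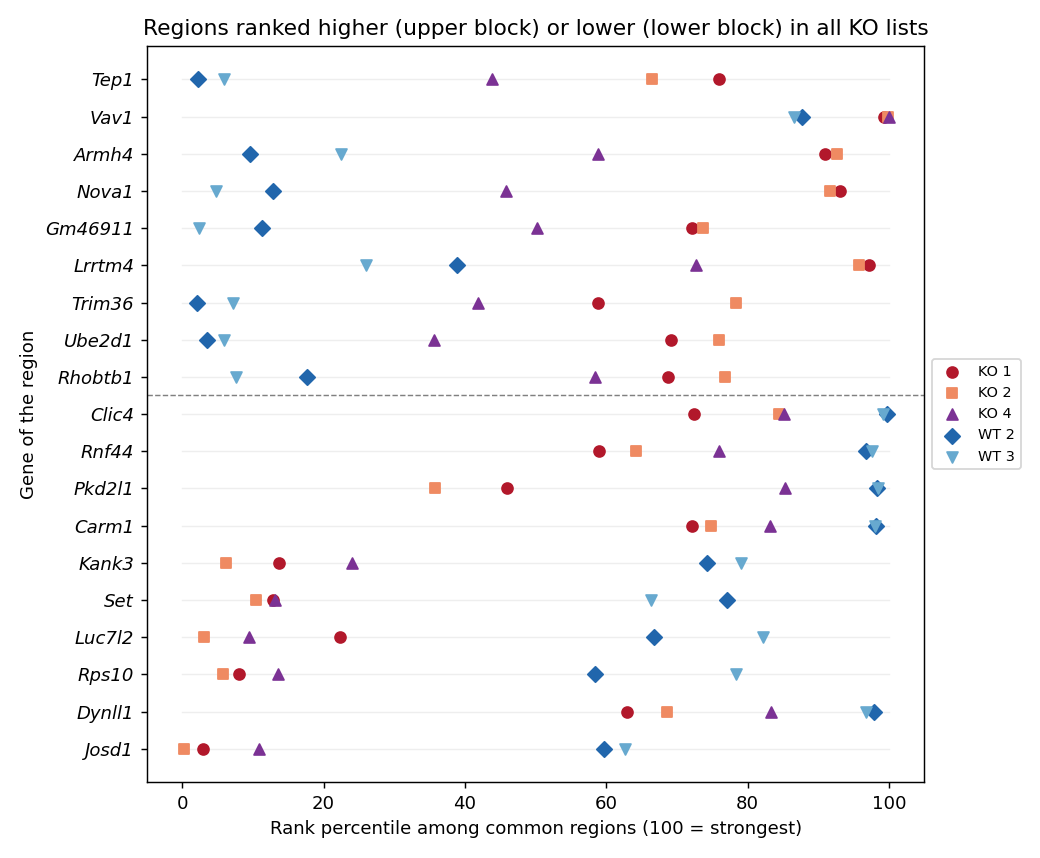
Rank percentile of 19 regions named for the lowest p, 9 higher and 10 lower in KO, in each LT-HSC list; each row is the region of 1 gene and each symbol 1 list. In the upper block KO 4 lies between the other KO lists and WT except at Vav1, and in the lower block Set, Rps10 and Josd1 have all 3 KO lists below 14 and both WT lists above 58.

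Among the receptors themselves, the peaks do not check the genotype, because no label says which segments were deleted. Rxra, on chromosome 2, had 11 regions within the gene or nearest to it, none held by all 5 lists. KO 1 held 0 of them, KO 2 held 3, KO 4 held 11, WT 2 held 11 and WT 3 held 4. Of all regions held by at least 2 lists they held 40.7%, 71.4%, 98.2%, 88.3% and 41.4% in the same order. The counts of KO 4, WT 2 and WT 3 thus lay near the shares of those lists over all regions. KO 1 and KO 2 thus held fewer than WT 3, although KO 2 is the longer list, and KO 4 held as many as WT 2. Rxrb had 1 region, over its start on chromosome 17 (chr17:34031491-34032112), held by all 5 lists at 25.5, 0.7 and 5.6 in KO and 32.2 and 43.0 in WT. All KO values were lower, by 27.0 points on average, with a KO SD of 13.1 and an adjusted limma p of 0.36. Ranked by fold enrichment the difference was -7.3, and with ranks centred on gene density, the number of genes within 500 kb, it was -8.8. The start of Slc39a7 lies in the same region, and the peak cannot be split between them.

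Regions of the nuclear receptor genes, their partners and cofactors had list medians near those of WT. For the 36 common regions of this list the median percentile was 32.0, 29.9 and 37.7 in KO and 36.5 and 34.9 in WT, with 3 regions higher in all KO lists (8.33%, against 16.4% of all regions) and 7 lower (19.4%, against 15.6%). The median difference was -3.3 points, -5.0 without KO 4, where limma called 4 higher and 9 lower, and -7.4 with ranks centred on gene density. Over all regions limma without KO 4 called 15.8% higher and 15.4% lower, the shares to set beside such counts in every list. Nr4a1, an immediate early gene and RXR partner, had 21.3, 18.1 and 33.4 at its start against 65.5 and 80.6, a difference of -48.8 that was -27.2 by fold enrichment. In MPPs that region had 68.7 and 64.5 in KO against 57.0 and 61.7 in WT, the opposite direction, though the difference between cell types had an adjusted limma p of 0.576. Rarb, a retinoic acid receptor, had 83.4, 78.6 and 46.6 against 15.8 and 22.8 inside the gene.

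Genes that RXR dimers are known to regulate leaned in neither direction as a list. Of 25 regions 4 ranked higher in every KO list and 4 lower (16% each, against 16.4% and 15.6% of all regions), and the median difference was 1.1 points, 3.0 without KO 4 (4 called higher and 6 lower). Srebf1, which drives fatty acid synthesis and is a target of the liver X receptors, had 50.2, 8.9 and 55.2 at its start against 85.0 and 76.7. Scd2, a desaturase, had 69.1, 76.0 and 80.6 in a region 9.4 kb away from it against 94.0 and 96.9.

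MYC itself did not separate the genotypes clearly, while more regions of its network and of its classical targets ranked lower than higher in every KO list. The region at the Myc start (chr15:61984837-61985719) had 56.7, 45.1 and 32.2 in KO against 29.6 and 24.0 in WT. KO was higher in each list, but the gap of 2.6 points was far smaller than the KO range of 24.6, and the adjusted limma p was 0.559; the difference of 17.8 was 8.4 by fold enrichment, and with ranks centred on gene density it was -7.9, the opposite direction. The other common region, 1.9 kb before the gene, had 14.3, 26.0 and 7.7 against 19.2 and 19.4. Of the 30 regions of the MYC network 2 were higher (6.67%) and 11 lower (36.7%), against 16.4% and 15.6% of all regions, with medians of 50.2, 45.2 and 59.0 against 66.0 and 68.7. The median difference of -15.1 was -18.1 without KO 4, where limma called 1 higher and 14 lower, and -6.9 without KO 1. Pim1, a kinase that cooperates with MYC, had 45.8, 39.4 and 30.6 at its start against 81.8 and 83.3, with KO 4 the lowest of all. Bptf, a chromatin remodeller that MYC recruits, had 50.0, 4.9 and 22.6 against 71.0 and 67.8.

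Of the 29 regions of MYC target genes 0 were higher and 10 lower (34.5%, against 15.6% of all regions). Of the 29, 82.8% lay within 1 kb of a gene end, and of all common regions so placed 24.1% were lower. Their medians were 58.7, 61.7 and 70.0 in KO against 68.0 and 74.5 in WT, so KO 4 lay within WT. The median difference of -8.9 was -12.6 without KO 4 (1 called higher and 12 lower) and -5.0 with ranks centred on gene density. Eif4a1, a translation initiation helicase, had 6.7, 2.1 and 9.0 against 36.8 and 43.6. That difference of -34.2 was -4.9 by fold enrichment and -17.2 with ranks centred on gene density. Rcl1, of ribosomal RNA processing, had 91.2, 89.2 and 98.8 against 99.6 and 99.4 (difference -6.4, and -4.2 by fold enrichment). The list of cell cycle genes had 5 of 42 regions higher (11.9%, against 16.4% of all regions) and 10 lower (23.8%, against 15.6%). Its median difference of -10.8 was -8.1 without KO 4, where limma called 3 higher and 5 lower, and -5.3 without KO 2. Out of 42 regions both of these counts were under the shares so called over all regions, 15.8% and 15.4%. E2f1, a factor of the G1 to S transition, had 62.9, 75.0 and 69.5 against 89.9 and 91.6, with no overlap, and Ccne1, a cyclin of the same step, had 57.9, 46.3 and 16.5 against 76.1 and 70.9 (difference -33.2, and -21.4 without KO 4).

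The AP-1 and immediate early genes had the largest share of lower regions among the lists of 16 or more regions. Of 48 regions 1 ranked higher in all KO lists (2.08%, against 16.4% of all regions) and 23 lower (47.9%, against 15.6%), with a median difference of -15.8 points against -0.9 for all regions. The medians were 34.4, 37.3 and 55.2 in KO and 61.9 and 65.4 in WT. KO 1 and KO 2 lay far under WT, and KO 4 between them and WT. Without KO 4 the median difference was -25.0, with 2 regions called higher by limma and 22 lower, and without KO 1 it was -8.1. By fold enrichment it was -9.4. Jund, a subunit of AP-1, had 20.1, 6.2 and 27.9 against 65.9 and 65.9. That difference of -47.8 was -2.5 by fold enrichment and -30.7 with ranks centred on gene density. These regions also lay in gene-rich surroundings, with a median of 23 protein-coding genes within 500 kb against 12 for all common regions. With ranks centred within bins of that gene density the median difference of the list was -11.2.

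Of the 52 regions of stem cell quiescence genes 3 were higher (5.77%, against 16.4% of all regions) and 15 lower (28.8%, against 15.6%), with medians of 34.9, 37.3 and 58.0 against 64.8 and 63.9. The median difference of -12.0 was -19.5 without KO 4, where limma called 0 higher and 23 lower, and -7.7 without KO 1. The quiescence list shares Egr1, Junb and Btg2 with the AP-1 and immediate early list, so any regions of these genes count in both. Smad3, which carries TGF-beta signals, had 23.7, 14.9 and 44.4 at its start against 71.6 and 75.9, and Ski, which restrains them, had 73.0, 60.3 and 88.9 against 97.5 and 97.5. Regions of genes that define LT-HSCs had 3 higher and 8 lower of 50 (16% lower, against 15.6% of all regions). Their median difference was -4.7, -7.3 without KO 4 (2 called higher and 11 lower), -1.0 without KO 2, and -14.3 with ranks centred on gene density. Mecom, a transcription factor needed to keep LT-HSCs, had 27.9, 26.1 and 20.3 in a region 5.5 kb away from the gene (chr3:30514948-30515631) against 63.7 and 60.7. All 3 KO lists agreed there within 7.6 points, and the MPP lists had 30.1 and 25.1 in KO against 27.1 and 21.5 in WT. Kit, the receptor of stem cell factor, had 27.6, 3.9 and 31.4 at its start against 48.4 and 73.9.

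Interferon and inflammation genes had 1 of 25 regions higher (4.0%, against 16.4% of all regions) and 7 lower (28.0%, against 15.6%). The median difference was -9.6, -17.3 without KO 4 (2 called higher and 8 lower) and -5.1 without KO 1. Irf1, a factor of the interferon response, had 22.5, 22.0 and 73.6 against 84.1 and 84.6, so that KO 4 lay near WT. Tnfaip3, an inhibitor of NF-kappa-B, had 44.5, 10.6 and 39.1 against 75.5 and 70.7. Of the 33 regions of lipid and mitochondrial metabolism 5 were higher (15.2%) and 9 lower (27.3%), beside the same shares of all regions. The median difference was -9.9, -8.9 without KO 4 (3 called higher and 10 lower), -4.9 without KO 2 and -3.2 with ranks centred on gene density. The mitochondrial enzyme Sdha was higher at 38.8, 54.3 and 29.1 against 13.0 and 3.1.

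Among the lists of lineage priming the lymphoid one leaned towards KO. Of its 31 regions 11 ranked higher in every KO list (35.5%, against 16.4% of all regions) and 2 lower (6.45%, against 15.6%). The median difference was 8.8 points, 9.6 without KO 4 (6 called higher by limma and 1 lower) and 5.0 without KO 1. The list medians overlapped, however, at 46.3, 43.1 and 38.2 in KO against 44.3 and 31.0 in WT. Gata3, a T cell factor, had 29.9, 36.2 and 26.8 near the gene against 2.3 and 3.9. Ikzf1, which opens the lymphoid programme, had 58.3, 43.1 and 32.3 against 5.0 and 13.6 inside the gene. These regions lay in gene-poor surroundings, with a median of 6 genes within 500 kb, and with ranks centred on gene density the median difference of the list was 0.2. The myeloid list had 1 of 26 higher (3.85%) and 2 lower (7.69%), both under the shares of all regions, with a median difference of -2.4 (-3.1 without KO 4, 2 called in each direction, also under the shares of all regions). In it Cebpb, a myeloid factor, had 33.1, 21.3 and 55.1 in a region 8.7 kb away from it against 60.6 and 63.9. A region 59.0 kb away from Cd34, a progenitor surface protein, had 72.4, 62.0 and 13.7 against 14.3 and 18.7. Its difference of 32.8 was 50.7 without KO 4 and 21.3 with ranks centred on gene density. The erythroid and megakaryocyte list had 4 of 16 higher (25.0%) and 5 lower (31.2%), with a median difference of -9.3, -9.6 without KO 4 (1 called higher and 5 lower) and -4.1 with ranks centred on gene density. In it Pf4 stood out for the closeness of the KO lists, with 79.3, 81.3 and 77.8 over its start against 59.9 and 44.3. In MPPs this Pf4 region had 18.9 and 19.5 in KO against 9.1 and 10.9 in WT. Itga2b, an integrin of platelets, had 32.0, 22.8 and 65.3 against 82.1 and 84.2.

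**Figure D3:**
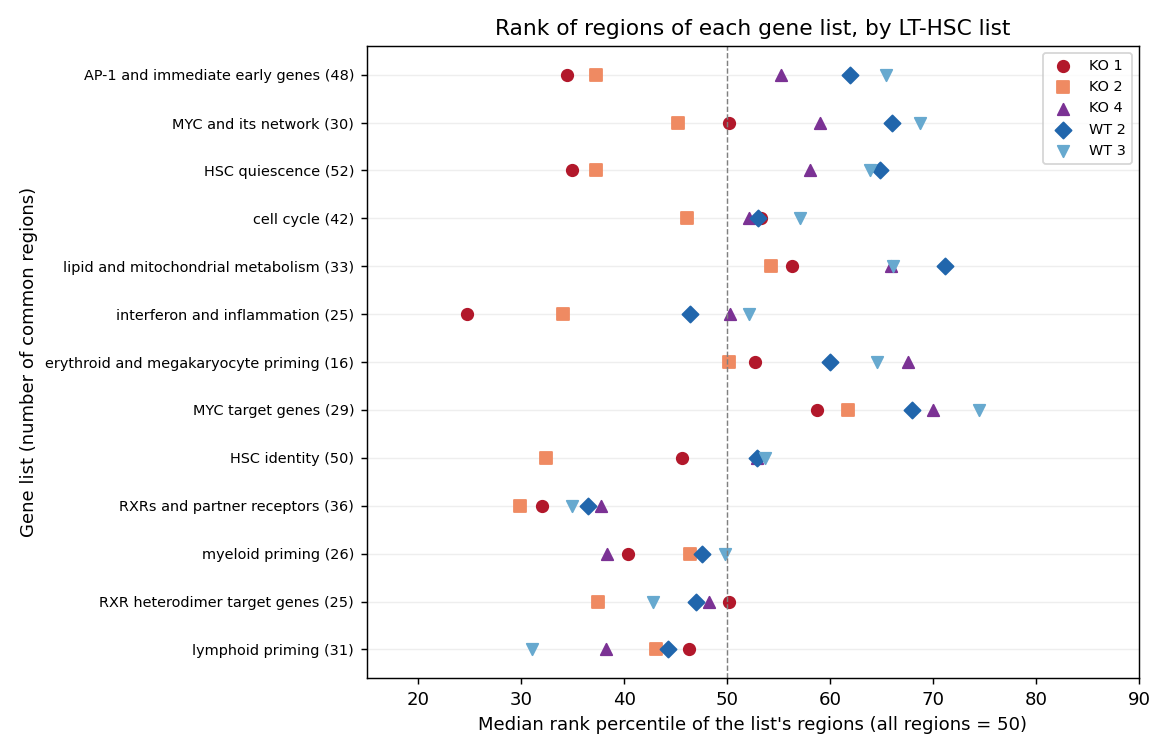
Median rank percentile of the common regions of each gene list with 16 or more regions, by LT-HSC list; the dashed line marks 50, the median of all common regions, and the number of regions stands in brackets. For the AP-1, MYC network and HSC quiescence lists KO 1 and KO 2 lie lowest, WT highest and KO 4 between them, and for 7 lists at least 1 KO median lies above a WT median.

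Markers of other cells that a sort could hold had few common regions. HSC identity genes had a common region in 21 of 27 genes, against 4 of 16 T and NK cell genes, 3 of 13 B cell genes, 6 of 14 mature myeloid, 3 of 9 mature erythroid, 1 of 9 mast cell and basophil, 7 of 14 stromal and endothelial and 5 of 13 neuronal and hepatic genes. Of all common regions 16.4% ranked higher in every KO list and 15.6% lower, and the marker lists are too short for their counts to be told from these shares. Of 8 regions of T and NK cell markers 1 ranked higher in every KO list and 0 lower. Both members named by the lowest p overlapped between the genotypes: Cd3d had 10.8, 19.9 and 85.0 against 84.7 and 79.5, a difference of -43.5 (-66.7 without KO 4), and a region of Il2ra had 48.1, 64.9 and 29.5 against 34.6 and 32.1 (14.2, and 23.2 without KO 4). B cell markers had 1 higher and 1 lower of 4, namely Cr2 at 94.6, 97.6 and 80.1 against 74.2 and 78.8 (difference 14.2, 7.7 by fold enrichment and 6.3 with ranks centred on gene density) and Pax5 at 35.5, 27.1 and 37.9 against 71.2 and 48.9. Mature myeloid, mature erythroid and neuronal and hepatic markers had 1 higher each, of 6, 3 and 7, while stromal and endothelial markers had 0 of 8 in either direction and mast cell markers 0 of 1. The median differences of these lists were -12.3, 19.4, 18.5, -1.9 and -30.4 in the same order. For mature myeloid markers it was -25.4 without KO 4, where limma called 0 higher and 3 lower. Over all regions held by at least 2 lists, KO 4 held all 44 of those at T and NK cell markers and KO 1 22.7%, beside 98.2% and 40.7% of all regions. The part of other cells in the genotype differences was not tested.

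The surroundings of a site followed the difference between KO 1 and KO 2 on one side and KO 4 and WT on the other. In the tenth of common regions with the fewest genes nearby, up to 4 within 500 kb, the median percentile was 67.3 in KO 1 and 66.4 in KO 2 against 42.3 in KO 4, 38.1 in WT 2 and 32.1 in WT 3. In the tenth with the most genes, 35 to 70, it was 43.8 and 44.1 against 64.4, 65.3 and 67.9. The Spearman correlation of rank with gene density was -0.19 and -0.17 in KO 1 and KO 2 and 0.17, 0.20 and 0.28 in KO 4, WT 2 and WT 3. By genotype the difference of the correlations was -0.3 with a KO SD of 0.2 (exact permutation test, p = 0.2), and it was -0.42 without KO 4. Regions with no gene within 100 kb had medians of 54.5, 56.4 and 43.2 in KO against 32.8 and 26.1 in WT, and 226 of 519 ranked higher in every KO list (43.5%) and 6 lower (1.16%). Here KO 4, too, lay above both WT lists.

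Some whole chromosomes showed the same split, while others did not, such as chromosome 8 with medians of 49.0 to 50.6 in all 5 lists. The regions of chromosome 11 had medians of 36.9 and 37.7 in KO 1 and KO 2 and of 57.9, 60.0 and 62.5 in KO 4, WT 2 and WT 3. Those of chromosome 19 had 43.6 and 43.7 against 59.0, 60.9 and 59.6. On chromosome 13, whose regions have few genes nearby, the order was the reverse, with 60.9 and 58.9 against 50.4, 48.3 and 45.9, and on chromosome 3 it was 54.7 and 57.8 against 44.7, 43.3 and 41.7. Chromosome 7, the most gene-rich by this measure, had medians of 51.4 to 54.5 in all 5 lists, so gene density alone did not order the chromosomes.

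**Figure D4:**
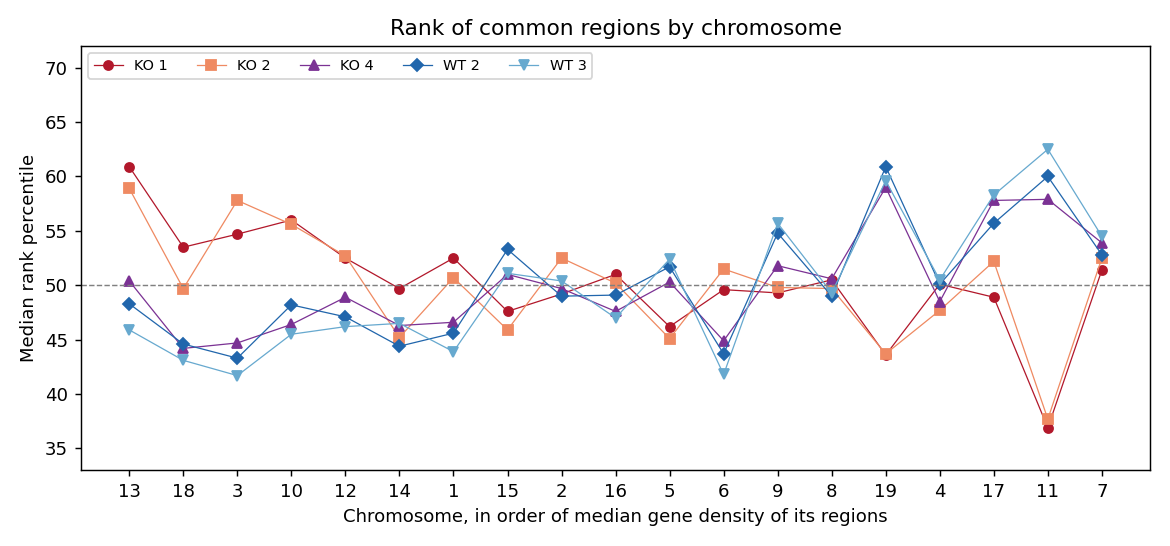
Median rank percentile of the common regions of each chromosome in the 5 LT-HSC lists, with chromosomes ordered by the median number of genes near their regions; the dashed line marks 50 and the vertical axis starts at 33. On chromosomes 11 and 19 KO 1 and KO 2 lie under 44 and the other 3 lists over 57.

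The GC content of promoters separated the lists by genotype, KO 4 included. This could be measured for the 6171 common regions that cover a start site of the RefSeq promoter table (42.4%); for the common regions as a whole such a check is void, since too few have a value. The correlation of rank with promoter GC was -0.02, -0.09 and -0.10 in KO 1, KO 2 and KO 4 against 0.11 and 0.14 in WT 2 and WT 3. The difference was -0.195 (KO SD 0.0448; exact permutation test, p = 0.1, the smallest it can give), and -0.18 without KO 4. In the tenth with the highest GC the medians were 49.6, 41.8 and 27.9 in KO, with KO 4 the lowest, against 58.6 and 62.2 in WT. In the tenth with the lowest GC they were 58.3, 60.2 and 50.1 against 44.6 and 44.5. In MPPs the same correlation was 0.24 and 0.20 in KO against 0.23 and 0.27 in WT, and the genotypes overlapped. Base composition can also change how well a fragment is amplified and read; its part was not tested.

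**Figure D5:**
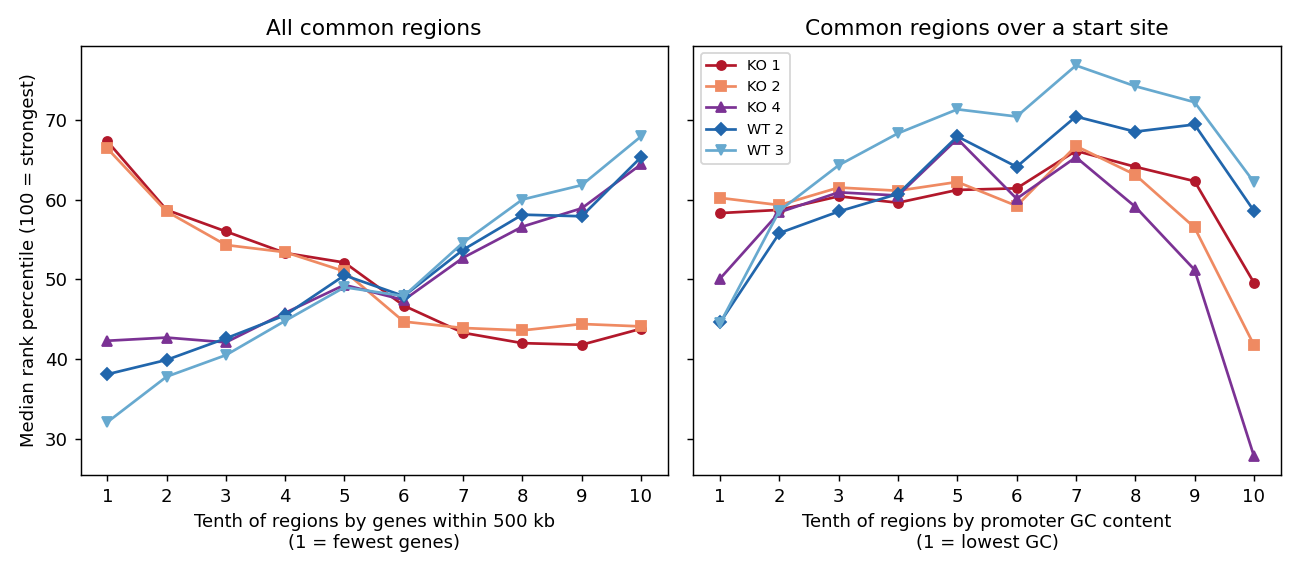
Median rank percentile of common regions in 10 bins of equal size by the number of genes within 500 kb (left, all 14541 regions) and by promoter GC content (right, the 6171 regions over a start site), 1 line per LT-HSC list. On the left KO 4 runs with the WT lists, and on the right at the highest GC all 3 KO lists lie below both WT lists, KO 4 at 27.9.

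The promoters under regions that ranked lower in KO were rich in GC boxes. The motif GGGCGG was on either strand of 82.9% of the 300-base promoter windows (250 bases before to 50 after the start) under regions lower in every KO list. It was in 53.0% of those under regions higher, 69.9% of those under all common regions and 35.7% of all 32851 windows. The median GC was 66.0%, 56.0%, 61.7% and 52.7% in the same order. The nuclear receptor motif AGGTCA was in 9.55% of windows under lower and 14.5% under higher regions, against 10.8% of windows under common regions and 16.3% of all windows. The E-box CACGTG, to which MYC can bind, was in 12.3% and 9.54%, against 11% and 7.15%. The AP-1 motif TGANTCA was in 3.49% and 7.73%, against 4.31% and 7.81%, and the CCAAT box in 42.4% and 52.1%, against 44.7% and 37.4%. A direct repeat of AGGTCA spaced by 1 base was in 13 of all windows, 1 of them under a lower and 0 under a higher region. GC-rich letters are more frequent in GC-rich windows, so these shares are not independent of the GC content, and a match is a description of letters.

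Position along genes went with these differences. Of the 7152 regions within 1 kb of a gene end, 694 ranked higher in all KO lists (9.7%) and 1724 lower (24.1%). Their medians were 59.2, 57.4 and 54.0 against 60.1 and 64.7. Away from gene ends the balance was the reverse, with 852 higher (20.4%) and 353 lower (8.45%) of 4177 regions inside genes. Over the 22690 strongest peaks of each list the share within 1 kb of a gene end was 37.9%, 36.1% and 36.5% in KO and 39.6% and 41.4% in WT. The difference of -3.6 percentage points (KO SD 0.939) left no overlap and had the smallest p the exact permutation test allows, 0.1; without KO 4 it was -3.5. Over whole lists, which differ in length, the shares of 37.9%, 27.5% and 22.2% against 27.0% and 41.2% overlapped (exact permutation test, p = 0.6).

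By presence, 1219 regions were held by all KO lists and neither WT list, 2.27% of the regions held by at least 2 lists, and 36 by both WT lists and no KO list (0.067%). Presence was not tested, since 3 lists against 2 cannot reach significance in a region. KO 4, the longest list, held 98.2% of these regions, so few could be missing from every KO list. Without KO 4 the counts were 1770 and 2139. With each list cut to its 22690 strongest peaks there were 563 KO regions (2.08% of 27079) and 720 WT regions (2.66%). The KO regions of the full lists were distal and in gene-poor stretches: 10.8% lay within 1 kb of a gene end against 25.5% of all regions, 21.4% had no gene within 100 kb against 6.14%, and the median number of genes within 500 kb was 4 against 11. Some MPP list held 60.5% of them against 87.4% of all regions.

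The genes with most regions held only by the KO lists included several of neurons and cell adhesion. Gpc5, a glypican, and Cadps, which primes secretory vesicles, had 4 each, as did the predicted gene Gm38667. Lsamp and Robo2, neuronal adhesion and guidance receptors, and Oxr1, an oxidation resistance gene, had 3 each. The strongest such region of each gene had 1 to 3 protein-coding genes within 500 kb, except at Gm38667 with 59. Gene length, which bounds how many regions a gene can hold, was not taken into account. The share of each gene's regions that these make up was not computed. At Lsamp the strongest region was peak number 3823 of KO 1, 5411 of KO 2 and 23959 of KO 4, and no MPP list held it. Of the KO regions 17 were among the 22690 strongest peaks of every KO list (0.0317%), for example in Tram2 (peak number 2338, 4747 and 13323), Naaladl2 (3798, 4957 and 18011) and Nfib (13080, 14191 and 21400). KO 4 ranked each of these 3 lower than KO 1 and KO 2 did. Of the WT regions 5 were as strong (0.00931%), at Rai1, Actg1, Gemin2, Itsn1 and Zc3h4. Actg1, a cytoplasmic actin, was peak number 12808 of WT 2 and 16525 of WT 3, and all 4 MPP lists held it.

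With all lists, no single region passed the test of whether its genotype difference differs between LT-HSCs and MPPs. Of 13908 regions held by all 9 lists 0 had a difference between cell types at an adjusted limma p under 0.05 (0.0%), and 1162 at an unadjusted p (8.35%). Without KO 4 limma called 3861 (27.8%). Of the regions higher in all KO LT-HSC lists, 29.2% also ranked higher in both KO than in both WT MPP lists and 20.2% lower, against 23.2% and 23.5% of all. Of those lower in LT-HSCs 13.7% were higher and 28.5% lower in MPPs. The sets called without KO 4 leaned the other way in MPPs: those higher in KO LT-HSCs were higher in MPPs in 21.6% and lower in 24.6%, and those lower in LT-HSCs were higher in 29.6% and lower in 17.2%. The difference between these pairs of shares was not tested.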

How the data were processed

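Open chromatin was measured by ATAC-seq, and the deposited files are narrowPeak lists, 1 per library; the notes name mm10 as the build. The submitters' processing notes list as tools cutadapt 1.7, FastQC, Bowtie2 4.1.2 (as the notes print the version), SAMtools 0.1.18, MACS2 2.1.1, DiffBind 2.6.6, edgeR 3.20.9 and HOMER 4.10.3, with no roles or settings. The deposited columns used were the −log10 of the q-value, the fold enrichment, a linear ratio, and the peak limits; the integer score and the −log10 of the p-value from the authors entered no result. No label or header says how duplicates, mitochondrial reads or the Tn5 offset were treated. The lists give no read counts, so depth per library is unknown and no counting interval can be given; a deeper library yields more peaks and larger −log10 values, which is why only ranks within a list were compared. The 9 lists held peaks on the 19 autosomes; other chromosomes are not analysed here.

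From the deposited lists, peaks overlapping by at least 1 bp were merged. A region took its best peak by −log10 q, ties by fold. Ranks among common regions were turned into normal scores and fitted in R 4.3.3 with limma 3.58.1 (eBayes with trend, KO minus WT, Benjamini-Hochberg, threshold 0.05). The fit was also tried on simulated data with independent noise in each list. Such data lack the likeness between certain lists seen here, so that trial does not check the p-values against it. Samples were grouped by title. A region belongs to the protein-coding gene that contains its midpoint, else to the nearest gene end within 100 kb, from the RefSeq table of GRCm38.p6 with 20665 autosomal genes; promoter windows were found for 79.6% of them. Of 407 gene list entries 400 were in the table. Some genes are in more than 1 list, so the lists are not independent. The comparison, the 20 gene lists and their tests were chosen with earlier results of these data known. Regions were named by rule: those of Rxra, Rxrb and Myc; per direction the 10 genes with the lowest p among non-overlapping regions, since none passed the threshold; the 6 genes with most separated regions by presence; and the 2 members of each list with the lowest p. Some regions that this rule names are not reported here. The other regions of the Vav1 locus were looked up after these values were seen. Alternatives were other ranks, merges, covariates, filters and left-out libraries. Correlations and shares by sequence used Python 3.11.15 with scipy 1.17.1.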

Additional observations from a re-analysis of the deposited data

How the results depend on the processing

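No paired analysis was possible because the LT-HSC KO and WT lists share fewer than 2 replicate numbers. Leaving out 1 library at a time moved most counts. The difference in peak number ranged from -4222 (without WT 3) to 22923 (without WT 2), was -3542 without KO 4, and the near-gene share of whole lists ranged from -12 to 2.17 percentage points (without WT 3). Regions held only by the KO lists ranged from 1255 to 5892 and those held only by WT from 39 to 2139, the latter without KO 4. Regions called by limma ranged from 0 to 2305 higher and from 0 to 2235 lower, both maxima without KO 4, as did the 0 to 3861 regions that differed between cell types. Non-overlapping regions ranged from 2793 to 4765 higher and from 2621 to 5122 lower. Of the gene list medians, RXR target genes ranged from -6 to 3, the MYC network from -18.1 to -6.9, AP-1 from -25.0 to -8.1, quiescence from -19.5 to -7.7, interferon from -17.3 to -5.1, MYC targets from -12.6 to -6.3, metabolism from -11 to -4.9, HSC identity from -7.3 to -1.0, receptors from -5.0 to -1.2, lymphoid priming from 5.0 to 9.6, mature myeloid markers from -25.4 to 0.5, the cell cycle list from -9.6 to -5.3, T and NK cell markers from -9.6 to 2.7, B cell markers from -5.8 to 9.3 and mast cell markers from -46 to 1.8. The cause was not tested for any of these.

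With lists of equal length the presence counts were 563 and 720, and with summits within 250 bp the WT count was 128. Limma calls were 9 higher when ranked by fold enrichment, and 283 higher and 107 lower with list length as a covariate. The following were chosen after seeing the data. Without KO 4 there were 1572 higher and 1373 lower with ranks centred on gene density, 1051 and 1021 among regions over a start site, and 1078 and 1020 among these with ranks centred on promoter GC. Non-overlapping regions were 4941 and 4883 over regions held by at least 3 lists, 1080 and 1058 over start sites, 1007 and 990 there with GC centring (fewer regions are tested), and 4314 and 4522 without KO 4 with density centring (fewer lists must separate). Centred on gene density, list medians were -7.4 for the receptors, 0.2 for lymphoid priming, -3.2 for metabolism, -1.4 for B cell markers, -14.3 for HSC identity, -5.0 for MYC targets, -4.1 for the erythroid and megakaryocyte list and -1.5 for mature myeloid markers, and by fold enrichment -9.4 for AP-1, -10.2 for the MYC network, -7.3 for B cell markers and 8.9 for the neuronal and hepatic list. Many named regions had KO and WT ranks that did not overlap, so leaving out 1 list could hardly reverse them. Several alternatives also reuse the same ranks. Of 928 values of the 61 named regions under alternatives 924 kept their direction, which the choice of regions had thus largely set. The reversed ones were the Myc start region (-7.9 with density centring, -10.9 so without KO 4), the other Myc region (without KO 4) and the Emcn region (0.4 without WT 3, on a range from there to 20.1); leaving out 1 library put the other Myc region between -12.6 and 0.8. Depth is unknown, and it limits how far an absent peak can be read as closed chromatin.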

Other observations

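Some gene families, picked after their values were seen, are described here without a test, beside 16.4% of all common regions higher in every KO list and 15.6% lower. Of 344 common regions at Zfp genes, which encode zinc finger proteins, 86 ranked higher in every KO list (25.0%) and 45 lower (13.1%), with medians of 56.1, 58.5 and 45.4 in KO 1, KO 2 and KO 4 against 43.9 and 46.4 in WT, so that KO 4 lay within WT. They lay in gene-rich surroundings, with a median of 21 genes within 500 kb, where KO 1 and KO 2 otherwise ranked low. Their promoters had a median GC of 55.3%, under the 61.7% of all common regions over a start site. Regions of cytosolic ribosomal protein genes had 3 of 62 higher and 18 lower (29.0%), and all 3 KO medians, 50.5, 53.7 and 51.4, lay below both WT medians, 55.4 and 75.3. Of these regions 88.7% lay within 1 kb of a gene end, and of all common regions so placed 9.7% were higher and 24.1% lower. At 23 regions of olfactory and vomeronasal receptor genes 8 were higher (34.8%) and 0 lower, and at 62 of core histone genes 7 were higher (11.3%) and 6 lower (9.68%), both under the shares of all regions.

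The 9 regions called higher in KO by limma when ranked by fold enrichment were chosen by that call, and their q-value ranks are a description. All 3 KO lists lay above both WT lists in each of them, with KO 4 the lowest KO list. They include a region inside Vps41, of lysosomal trafficking (94.3, 91.9 and 54.7 against 17.8 and 21.3), one near Hepacam2 (95.0, 96.9 and 64.0 against 27.0 and 39.0) and one near Rspo2, an agonist of WNT signalling (90.1, 87.9 and 43.7 against 21.3 and 1.4). The other named gene is Tep1, and 5 of the 9 had no gene within 100 kb.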
